A study of Mus musculus with 8 samples.

Results

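Fibroblast identity outside the main collagens was read from 38 listed genes in whole lungs, chosen by name for alveolar, adventitial and peribronchial fibroblasts, their transcription factors and their signals. Of these, 36 had a transcript cluster, that is, a set of array probes along a gene, that carried their symbol alone, among 30816 genes and 65956 clusters on the array. Pdgfra, the receptor that marks lung fibroblasts as a class, shares its only cluster with other symbols, and Ly6a has no cluster with a single symbol, so neither was measured here. Each of the 36 had exactly 1 cluster. Dpt, counted among the 36, encodes a secreted protein of the matrix itself.

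Lungs came from 4 Atf4 KO mice (Atf4D/D), Rosa26::CreERT2 with both Atf4 alleles floxed, and from 4 Atf4 WT mice (Atf4wt/wt), Rosa26::CreERT2 with intact alleles. Both groups were C57BL/6, carried the Cre and had received tamoxifen by gavage 4 weeks before, were 13 weeks old and held 3 males and 1 female each (KO replicate 2 and WT replicate 3 were the females). The Rosa26 promoter drives the recombinase in all tissues, so the deletion was not limited to fibroblasts, and each array held RNA of the lung tissue of 1 mouse. Values are log2 signals, so a difference of 1 is a doubling, and changes are given as KO minus WT. Atf4, the stress-response transcription factor that was targeted, read 6.34, 6.26, 6.48 and 6.38 in KO replicates 1 to 4, against 6.99, 8.03, 8.0 and 7.58 in WT replicates 1 to 4. It fell by 1.29 (SE 0.21, adjusted p = 0.0485, limma). Without WT replicate 1 the change was -1.51 (adjusted p = 0.00903), and without any 1 of the other arrays it lay between -1.33 and -1.16 with an adjusted p of 0.0965 to 0.159. In Atf4 the array labelled WT replicate 1 lay nearest to the KO arrays, and several results are given without it as well. Pairwise correlations between the 8 arrays lay between 0.988 and 0.996. Defining markers of the organ were present in all arrays, with Sftpc, the surfactant protein of alveolar type II cells, at 18.50 to 18.72 in KO and 18.71 to 18.90 in WT lungs. Of the 36 fibroblast genes, 34 lay above the median signal of all clusters, and Lgr5 and Twist1 lay below it.

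Fibroblasts of the lung occupy distinct niches. Alveolar fibroblasts, some of them rich in lipid droplets, lie beside the epithelium of the gas-exchange surface and provide Wnt and FGF ligands to it. Adventitial fibroblasts form the cuffs around vessels and large airways and express genes shared by fibroblasts of many organs, such as Pi16 and Dpt, while fibroblasts near the airways respond to hedgehog ligands from the epithelium. Transcription factors such as Tbx4, Tbx5, Foxf1 and Tcf21 lay down the lung mesenchyme in the embryo and remain expressed in the adult.

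The promoters of 4 members are shown because Cd34 and Dpt had the largest differences among the genes whose groups did not overlap, and because Serpinf1 and Pi16 were the members whose promoters held a match to the composite element of ATF4 with C/EBP proteins. The windows come from RefSeq on GRCm38.p6, run from 250 bases before to 50 bases after the annotated start and are written along the gene's own strand. Cd34 lies at chr1:194938571-194938870 (plus strand), Dpt at chr1:164796413-164796712 (plus strand), Serpinf1 at chr11:75422574-75422873 (minus strand) and Pi16 at chr17:29318632-29318931 (plus strand). Capitals mark the composite element, searched as TGATGNAA on both strands; all other bases are in lower case.
Cd34: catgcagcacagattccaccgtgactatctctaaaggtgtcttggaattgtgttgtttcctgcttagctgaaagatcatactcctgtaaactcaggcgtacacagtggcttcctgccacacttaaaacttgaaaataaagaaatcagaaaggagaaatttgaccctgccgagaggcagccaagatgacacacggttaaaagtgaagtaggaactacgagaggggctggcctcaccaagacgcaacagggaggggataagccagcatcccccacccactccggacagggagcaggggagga
Dpt: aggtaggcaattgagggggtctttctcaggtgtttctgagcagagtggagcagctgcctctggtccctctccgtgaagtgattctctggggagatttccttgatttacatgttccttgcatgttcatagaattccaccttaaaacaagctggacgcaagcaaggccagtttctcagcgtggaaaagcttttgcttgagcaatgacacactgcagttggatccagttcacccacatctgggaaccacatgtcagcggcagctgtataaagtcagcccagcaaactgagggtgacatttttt
Serpinf1: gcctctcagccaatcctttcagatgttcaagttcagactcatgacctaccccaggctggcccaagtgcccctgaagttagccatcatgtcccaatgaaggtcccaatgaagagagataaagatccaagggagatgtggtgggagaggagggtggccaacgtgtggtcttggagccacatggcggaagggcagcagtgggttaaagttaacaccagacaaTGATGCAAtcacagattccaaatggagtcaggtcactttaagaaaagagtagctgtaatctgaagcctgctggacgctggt
Pi16: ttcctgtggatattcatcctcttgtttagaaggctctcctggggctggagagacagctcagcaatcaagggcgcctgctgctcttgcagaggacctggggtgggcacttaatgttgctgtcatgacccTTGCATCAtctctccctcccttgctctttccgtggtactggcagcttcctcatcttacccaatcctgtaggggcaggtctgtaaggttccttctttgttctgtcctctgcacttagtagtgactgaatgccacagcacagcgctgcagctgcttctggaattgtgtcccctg
The match in Serpinf1, TGATGCAA, began at position -31, counted from the annotated start, and that in Pi16, TTGCATCA on the other strand, at position -122. Of 30 windows of 27 members, 2 held this element, and of all 32851 RefSeq windows 3.97% did. The palindromic cAMP response element, TGACGTCA, stood in 1 member window, that of Hhip, and in 1.79% of all windows. No window was matched for Ces1d, Foxf1, Gli1, Lgr5, Ly6a, Osr1, Pdgfrb, Tbx2, Tbx5, Thy1 and Wnt5a. The Serpinf1 and Pi16 signals lay on opposite sides of WT, lower in KO for Serpinf1 and higher for Pi16 in group mean.

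None of the 36 genes passed the threshold of an adjusted p of at most 0.05 with a fold above 1.5 by limma. Over the whole array 182 clusters did by limma, 0.276% of all, with 0.047% lower and 0.229% higher in KO lungs. A t-test of each cluster alone called 0 of all clusters, so its 0 among the members was fixed and says nothing about them. The methods mention that test for pairs of groups but not for arrays. Among clusters above the median signal 0.537% passed by limma, 0.091% lower and 0.446% higher. The smallest adjusted p of a member was 0.0842, for Cd34. At an unadjusted p under 0.05, 8 members were lower in KO lungs by limma (7 by the t-test) and 0 were higher by either. Those 8 are 22.2% of the measured members, against 7.63% of all clusters and 10.7% of clusters above the median signal. The corresponding shares of higher clusters were 4.4% and 7.17%. These shares are those by limma, where 7932 clusters passed that p in either direction, against 7261 by the t-test. The KO and WT arrays did not overlap for 5 members, all with KO below WT, which is 13.9% of the members against 4.41% of all clusters and 5.75% of clusters above the median signal. No member had all KO arrays above all WT arrays, a pattern found in 2.83% of all clusters and 4.45% of those above the median signal. Group means were lower in KO for 26 of the 36 (72.2%, against 61% of all clusters and 58.8% of those above the median signal). The median change of the members was -0.11, against -0.03 over all clusters. Reading 36 genes in this way describes them and is no test of the group.

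**Figure D1:**
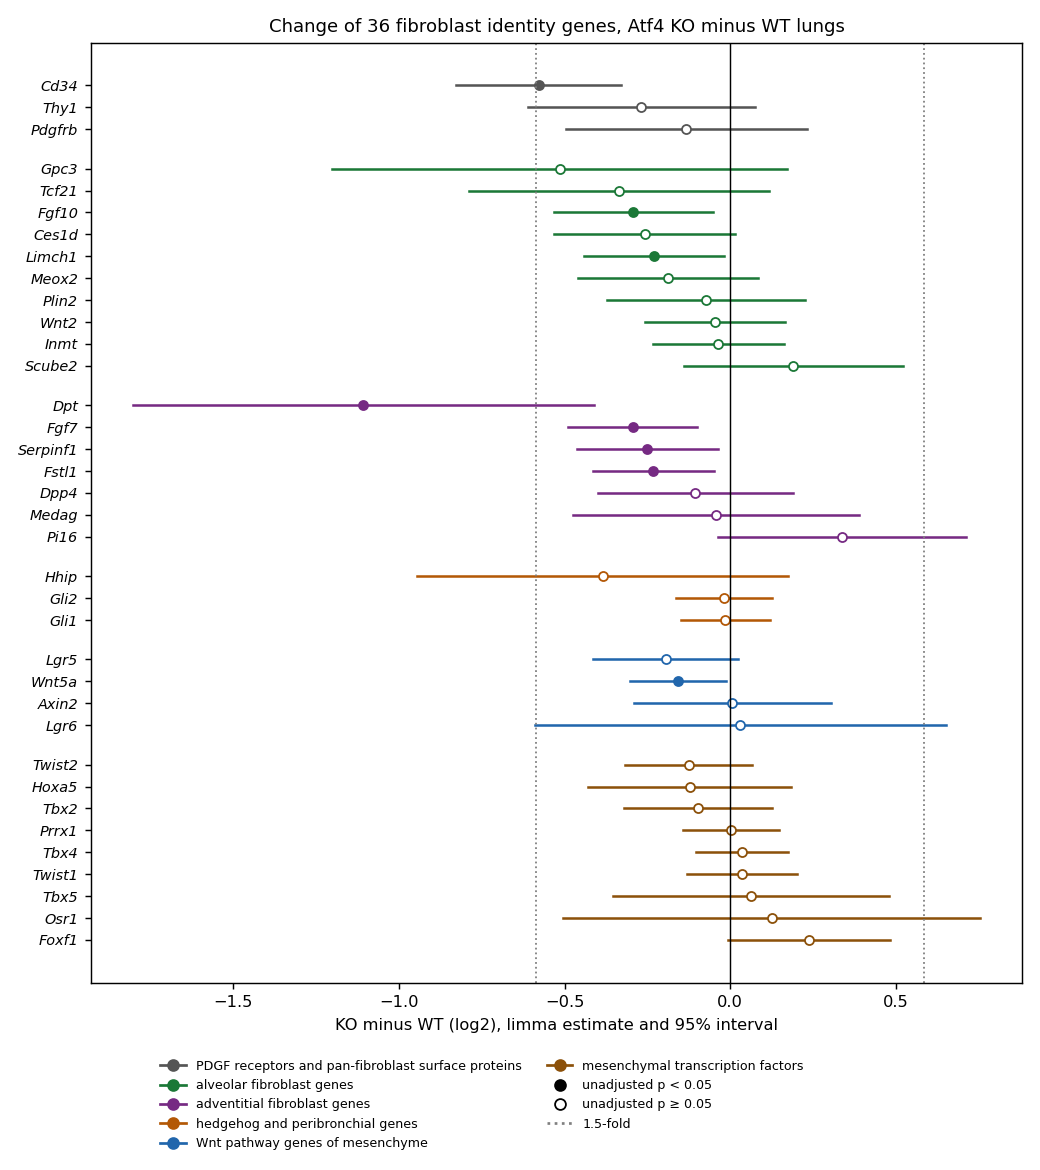
Change of each of the 36 measured genes in log2 units (KO minus WT, limma estimate with its 95% interval), grouped by role, with filled points for an unadjusted p under 0.05 and dotted lines at 1.5-fold. The 8 filled points all lie left of 0, with Dpt at -1.11 and Cd34 at -0.58, and the transcription factors centre near 0.

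Among the surface proteins, Cd34 stood lowest. Cd34, a sialomucin carried by adventitial and other stromal fibroblasts and also by endothelial cells, read 11.95, 11.78, 12.11 and 11.95 in KO replicates 1 to 4, against 12.23, 12.60, 12.61 and 12.66 in WT replicates 1 to 4. All KO arrays lay below all WT arrays, and the lowest WT array was replicate 1. The change was -0.58 (SE 0.11, unadjusted p = 0.000533, adjusted p = 0.0842, limma), a 1.49-fold difference. Without the array labelled WT replicate 1 the change was -0.68 with an adjusted p of 0.0290, and Cd34 was then the 1 member called. In that fit 266 of all clusters were called, against 182 with all arrays. Because endothelial cells also carry Cd34, their markers bear on this reading. Of 8 endothelial markers, 4 were higher at an unadjusted p under 0.05 (Vwf 0.76, Pecam1 0.32, Tek 0.30 and Kdr 0.26) and 1 was lower (Emcn, a sialomucin, -0.61). The mean over the 8 ran from 13.92 to 14.08 in KO and from 13.70 to 14.09 in WT lungs, so the groups overlapped. Their part in the Cd34 difference was not tested.

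The arrays of both genotypes overlapped for the other surface proteins measured. Thy1, an anchored glycoprotein of fibroblasts and T cells, ran from 6.32 to 7.01 in KO and from 6.59 to 7.02 in WT lungs (change -0.27, 95% interval -0.61 to 0.08). Pdgfrb, the receptor for PDGF-B on fibroblasts and pericytes, ran from 12.58 to 13.10 in KO and from 12.53 to 13.27 in WT lungs (change -0.13, 95% interval -0.50 to 0.23). For Thy1 the interval reaches past a 1.5-fold decrease, and for Pdgfrb it stays inside 1.5-fold. Single lungs moved both values. Without KO replicate 3 the Thy1 change was -0.41 (unadjusted p = 0.00613). Thy1 was highest in KO replicate 3 and WT replicate 1 and lowest in KO replicate 2 and WT replicate 2. Cd3e, a T cell gene, was highest (10.10 and 9.63) and lowest (8.52 and 8.11) in the same lungs. Cd8a, also of T cells, matched in KO but was lowest in WT replicate 1 (5.83). The part of T cells in the Thy1 values was not tested. The Pdgfrb change was -0.03 without WT replicate 1, -0.27 without WT replicate 2, -0.05 without KO replicate 2 and -0.23 without KO replicate 3.

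Of the 5 members whose groups did not overlap, 4 were listed as adventitial. This grouping was made with earlier results of these data known. Of 7 measured adventitial genes the same 4 were lower at an unadjusted p under 0.05 by limma. Over all clusters 4.41% had KO below WT without overlap and 7.63% were lower at that p. The median change was -0.23 for the 7, close to the -0.21 of the 10 alveolar genes. Dpt, which encodes dermatopontin, a protein that binds collagen fibrils, showed the largest difference of the 36. It read 12.84, 11.59, 13.10 and 13.05 in KO replicates 1 to 4, against 13.72, 14.04, 13.51 and 13.73 in WT replicates 1 to 4. KO replicate 2, the female, lay far below the other KO lungs. The change was -1.11 (SE 0.31, unadjusted p = 0.00573, adjusted p = 0.211, limma), a 2.15-fold difference with a 95% interval of -1.80 to -0.41. Without KO replicate 2 the change was -0.76 (adjusted p = 0.110), and in males alone it was -0.84.

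Fgf7 and Fstl1 followed with smaller differences. Fgf7, keratinocyte growth factor, which the mesenchyme sends to epithelial cells, read 8.36, 8.65, 8.75 and 8.54 in KO replicates 1 to 4, against 8.88, 8.87, 8.79 and 8.94 in WT replicates 1 to 4 (change -0.29, SE 0.09, unadjusted p = 0.00778, adjusted p = 0.232). The WT arrays lay close together, and the highest KO array stopped just short of the lowest of them. Fstl1, a secreted follistatin-like glycoprotein, read 10.59, 10.57, 10.66 and 10.35 in KO replicates 1 to 4, against 10.68, 10.75, 10.79 and 10.88 in WT replicates 1 to 4 (change -0.23, SE 0.08, unadjusted p = 0.0180, adjusted p = 0.303). KO replicate 3 and WT replicate 1 all but met. Serpinf1, which encodes the secreted anti-angiogenic factor PEDF, read 6.33, 6.21, 6.37 and 6.38 in KO replicates 1 to 4, against 6.76, 6.41, 6.70 and 6.42 in WT replicates 1 to 4 (change -0.25, SE 0.09, unadjusted p = 0.0260, adjusted p = 0.338). WT replicates 2 and 4 sat at the upper edge of the KO range. Without WT replicate 1 the Serpinf1 change was -0.19 at an unadjusted p of 0.0702.

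The remaining adventitial genes did not follow Dpt. Pi16, a peptidase inhibitor that marks fibroblasts around vessels, ran from 5.61 to 6.32 in KO and from 5.36 to 5.85 in WT lungs (change 0.34, 95% interval -0.04 to 0.71). Its highest value was that of KO replicate 2, the array in which Dpt was lowest, and without that array the Pi16 change was 0.20 (unadjusted p = 0.194). Dpp4, a surface peptidase that removes dipeptides from the start of peptides, differed by -0.11 and Medag, a gene linked to fat cell formation, by -0.04, with overlapping arrays. Averaged over the 7 adventitial genes the log2 signal ran from 8.83 to 9.09 in KO and from 9.20 to 9.32 in WT lungs, and every KO lung lay below every WT lung. Dpt carried much of this gap, with a change of -1.11 against a median of -0.23 for the 7.

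**Figure D2:**
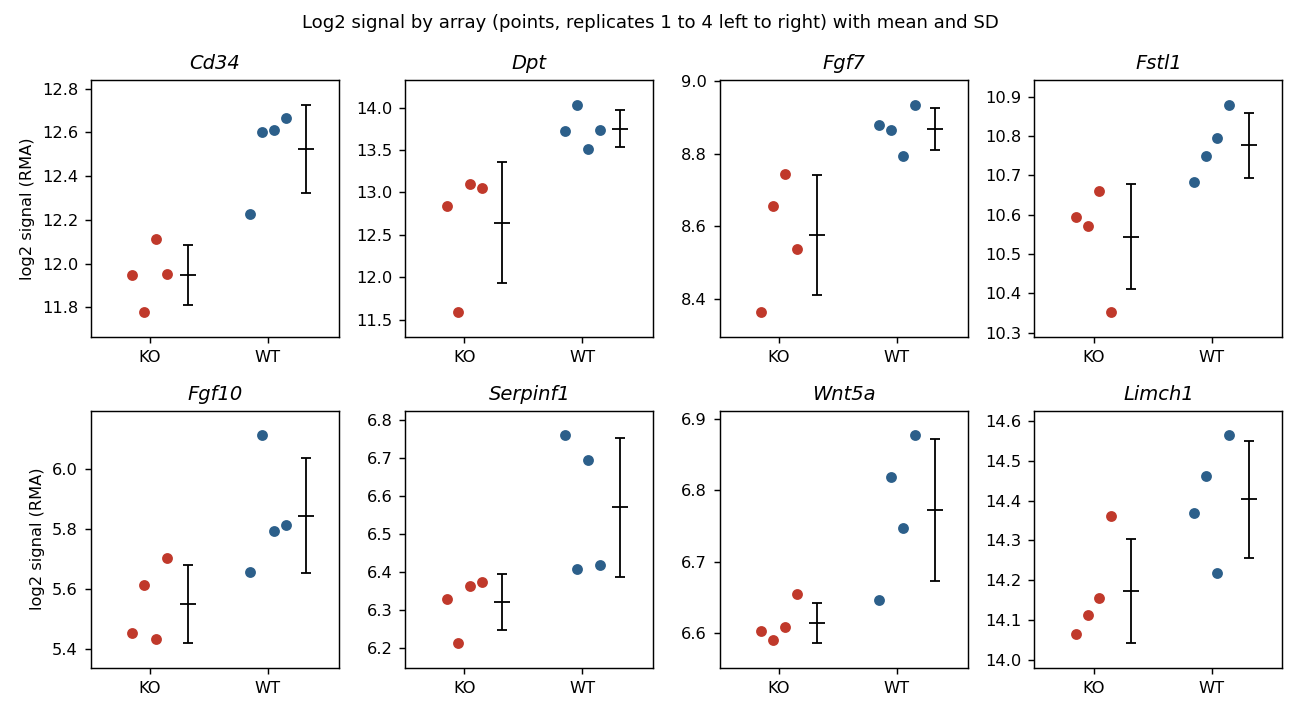
Log2 signal of the 8 members with an unadjusted p under 0.05, 1 point per lung (replicates 1 to 4 from left to right, KO left and WT right), with the mean and SD of each group beside the points; each panel has its own axis, which does not start at 0. Cd34, Dpt, Fgf7, Fstl1 and Serpinf1 show no overlap, and KO replicate 2 at 11.59 lies apart for Dpt.

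Alveolar fibroblast genes leaned lower with few clear differences. Of 10 measured, 9 had a lower KO mean, against 61% of all clusters, with a median change of -0.21. At an unadjusted p under 0.05 by limma 2 were lower, against 7.63% of all clusters. Averaged over the 10 genes the log2 signal ran from 11.01 to 11.20 in KO and from 11.13 to 11.49 in WT lungs, so the groups overlapped. WT replicate 2 was the highest lung, and without it 7 of the 10 had a lower KO mean and the median change was -0.15. Fgf10, the mesenchymal ligand of Fgfr2 that drives lung branching, read 5.45, 5.61, 5.43 and 5.70 in KO replicates 1 to 4, against 5.66, 6.11, 5.79 and 5.81 in WT replicates 1 to 4 (change -0.29, SE 0.11, unadjusted p = 0.0219, adjusted p = 0.320). KO replicate 4 exceeded WT replicate 1, so the groups overlapped by this pair. Without WT replicate 1 Fgf10 was still lower at an unadjusted p under 0.05. Limch1, an actin-binding protein that activates non-muscle myosin, read 14.06, 14.11, 14.15 and 14.36 in KO replicates 1 to 4, against 14.37, 14.46, 14.22 and 14.56 in WT replicates 1 to 4 (change -0.23, SE 0.09, unadjusted p = 0.0363, adjusted p = 0.374). Here KO replicate 4 lay above WT replicate 3.

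Larger but more variable differences were seen for Gpc3 and Tcf21. Gpc3, a heparan sulfate proteoglycan of the cell surface, ran from 12.02 to 12.90 in KO and from 12.33 to 13.78 in WT lungs, and its change of -0.51 had a 95% interval of -1.20 to 0.17. Tcf21, a helix-loop-helix factor of alveolar fibroblasts, ran from 11.89 to 12.61 in KO and from 12.05 to 12.87 in WT lungs (change -0.34, interval -0.79 to 0.12). In both genes the array labelled WT replicate 1 gave the lowest WT value, and without it the changes were -0.71 for Gpc3 (unadjusted p = 0.0396) and -0.49 for Tcf21 (unadjusted p = 0.0237). In both genes WT replicate 2 gave the highest value of all lungs, and without it the changes were -0.23 for Gpc3 (unadjusted p = 0.333) and -0.22 for Tcf21 (unadjusted p = 0.310). That lung also had the highest mean over 6 mesothelial markers, 9.94, against 7.61 to 9.23 in KO lungs and 7.80 to 8.32 in the other WT lungs, and the part of these cells was not tested. Ces1d, a lipid-hydrolysing carboxylesterase, differed by -0.26 (interval -0.53 to 0.02, and -0.16 without WT replicate 4), and Meox2, a homeobox factor, by -0.19 (interval -0.46 to 0.08, and -0.09 without WT replicate 2).

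Among the other alveolar genes, Plin2, Wnt2 and Inmt read near 0. Plin2, the coat protein of lipid droplets, differed by -0.07 (95% interval -0.37 to 0.22), Wnt2, a mesenchymal Wnt ligand, by -0.05 (-0.26 to 0.17), and Inmt, a methyltransferase that is strongly expressed in lung, by -0.04 (-0.23 to 0.16). Scube2, a secreted protein that helps release hedgehog ligands, was the 1 alveolar gene with a higher KO mean, at 0.19 (-0.14 to 0.52). All of these intervals lie inside 1.5-fold.

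Hedgehog and peribronchial genes showed little. Gli1 and Gli2, the transcription factors at the end of the pathway, differed by -0.01 (95% interval -0.15 to 0.12) and -0.02 (-0.16 to 0.12). Both intervals lie well inside 1.5-fold. Gli1 had the lowest spread within groups of all 36 (SD 0.058), against a median of 0.181 and 0.526 for Dpt. Hhip, which binds hedgehog ligands and is itself induced by them, was far more variable, from 10.30 to 11.07 in KO and from 10.60 to 11.65 in WT lungs (change -0.39, interval -0.95 to 0.18, and -0.19 without WT replicate 4). Of 15 measured hedgehog pathway genes outside the members, 0 were called. At an unadjusted p under 0.05 by limma 1 was lower, against 7.63% of all clusters. This was Ihh, a ligand (-0.22, unadjusted p = 0.0146, adjusted p = 0.286), while Ptch1, the receptor and target, differed by 0.15 (interval -0.12 to 0.42).

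Among Wnt genes of the mesenchyme, Wnt5a alone had an unadjusted p under 0.05. Wnt5a, a ligand that acts mainly without β-catenin, read 6.60, 6.59, 6.61 and 6.66 in KO replicates 1 to 4, against 6.65, 6.82, 6.75 and 6.88 in WT replicates 1 to 4 (change -0.16, SE 0.06, unadjusted p = 0.0359, adjusted p = 0.373). The KO arrays were tightly grouped and the array labelled WT replicate 1 fell among them. Without that WT array Wnt5a was still lower at an unadjusted p under 0.05. Axin2, a feedback target of β-catenin signalling, differed by 0.01 (95% interval -0.29 to 0.30). Lgr5 and Lgr6, receptors for R-spondins, differed by -0.20 (-0.41 to 0.02) and 0.03 (-0.59 to 0.65). Lgr6 was high in KO replicate 1 (6.67) and WT replicate 1 (6.79) alike. The same lungs had the highest mean of their group over 12 smooth muscle and pericyte markers, 9.96 and 9.92. The part of these cells in Lgr6 was not tested. Of 34 measured genes of the wider Wnt pathway 0 were called, 4 were lower and 1 higher at an unadjusted p under 0.05. These were Wls, which escorts Wnt ligands to the surface, at -0.25, Notum, which inactivates them, at -0.24, the receptors Fzd2 at -0.23 and Lrp6 at -0.20, and Nkd1, an inhibitor, at 0.34.

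Mesenchymal transcription factors centred near 0. Of 9 measured, 0 had an unadjusted p under 0.05, 6 had a higher and 3 a lower KO mean, and the median change was 0.03. Counted with Tcf21, Meox2, Gli1 and Gli2, which are grouped above by cell type or pathway, 7 of the 13 factors had a lower and 6 a higher KO mean, with a median of -0.01. Tbx4, which marks lung mesenchyme, ran from 11.08 to 11.23 in KO and from 11.07 to 11.18 in WT lungs (change 0.03, 95% interval -0.10 to 0.17). Its neighbour Tbx2 differed by -0.10 (-0.32 to 0.13), and Prrx1, a homeobox factor of mesenchyme, by 0.00 (-0.14 to 0.15). Intervals for these 3 factors stay within 1.5-fold. Twist1 and Twist2, helix-loop-helix factors of mesenchyme, differed by 0.04 (-0.13 to 0.20) and -0.13 (-0.32 to 0.07), with Twist1 at a dim 3.47 to 3.77 in KO and 3.54 to 3.63 in WT lungs. Foxf1, a forkhead factor that lung endothelial cells also express, read 12.59, 12.65, 12.34 and 12.23 in KO replicates 1 to 4, against 12.06, 12.30, 12.19 and 12.31 in WT replicates 1 to 4 (change 0.24, 95% interval -0.01 to 0.48). KO replicates 1, 2 and 3 exceeded every WT array and KO replicate 4 did not. Hoxa5, a patterning factor of the lung, differed by -0.12 (-0.43 to 0.18), Tbx5 by 0.06 (-0.35 to 0.48) and Osr1 by 0.13 (-0.50 to 0.75).

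Taking all roles, 27 of the 36 genes had a 95% interval that lay wholly within a 1.5-fold change in either direction. The 9 whose interval reached further were Cd34, Thy1, Dpt, Pi16, Gpc3, Tcf21, Hhip, Lgr6 and Osr1. The median size of the change, without its sign, was 0.15 log2 units for the members, against 0.11 for clusters above the median signal.

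**Figure D3:**
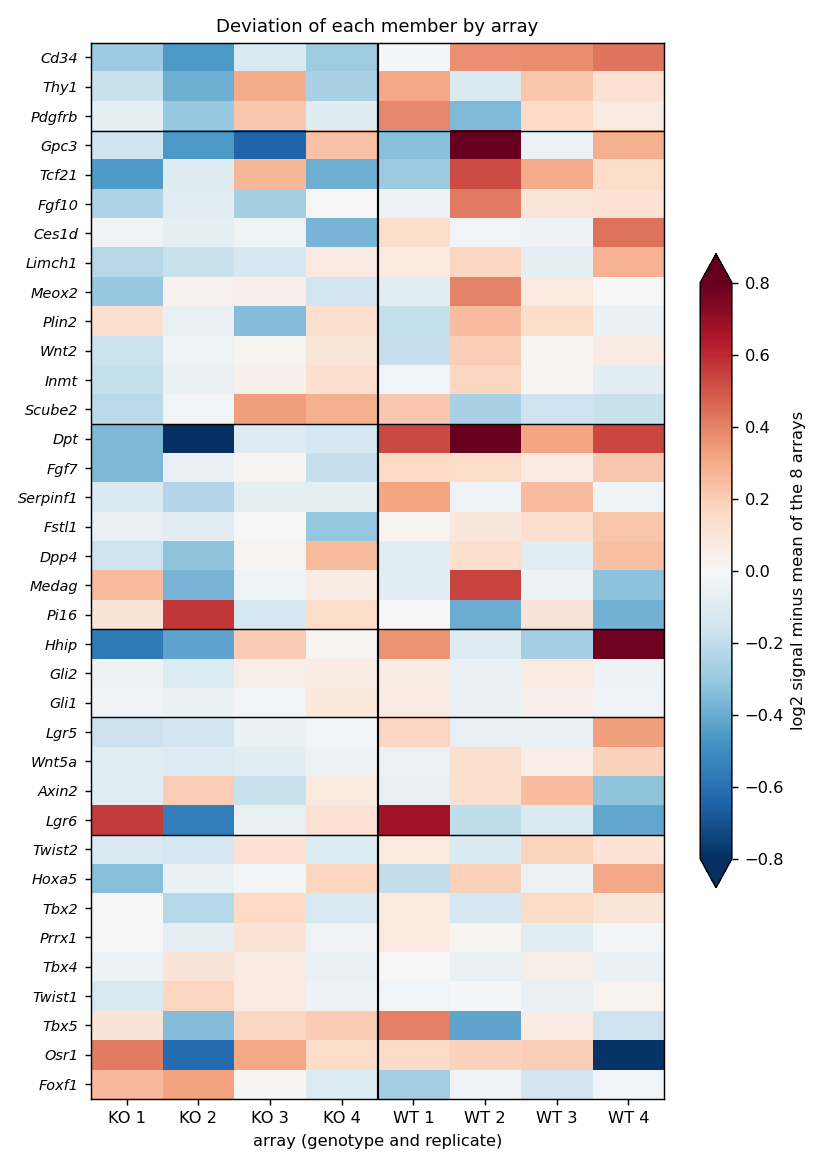
Deviation of each member's log2 signal from its mean over the 8 arrays, 1 row per gene by role and 1 column per lung, KO left and WT right of the vertical line; red is above and blue below the mean, and values beyond the scale share the end colours. KO replicates 1 and 2 hold 9 and 12 of the 36 row minima, and WT replicates 2 and 4 hold 9 row maxima each.

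The KO lungs did not contribute equally. KO replicate 2 gave the lowest of all 8 values for 12 members and KO replicate 1 for 9, against 3 and 2 for KO replicates 3 and 4. WT replicates 1 to 4 gave the lowest value for 2, 5, 1 and 2 members. Averaged over the 36 genes, the log2 signal was 9.35, 9.27, 9.45 and 9.43 in KO replicates 1 to 4, against 9.51, 9.54, 9.50 and 9.50 in WT replicates 1 to 4, so every KO lung lay below every WT lung by a small margin. KO replicate 2 also had the highest mean over 8 neutrophil markers, 12.79, against 8.99 to 11.19 in the other KO lungs and 7.88 to 8.79 in WT lungs.

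Pathway partners of the fibroblast ligands were read in the same fit. PDGF genes outside the members were lower in mean in 5 of 5, as were 61% of all clusters, and 0 were called. Pdgfa, a ligand of the PDGF α receptor, was at -0.22 (unadjusted p = 0.0165, adjusted p = 0.297, limma) and Pdgfrl, a receptor-like gene, at -0.16 (unadjusted p = 0.0256). Of 16 measured FGF pathway genes 0 were called, while 3 were lower and 1 higher at an unadjusted p under 0.05. Over all clusters 7.63% were lower and 4.4% higher at that p. Fgfr2, the receptor for Fgf7 and Fgf10 on epithelium, read 11.40, 11.36, 11.09 and 11.39 in KO replicates 1 to 4, against 11.60, 11.61, 11.54 and 11.95 in WT replicates 1 to 4 (change -0.36, SE 0.11, unadjusted p = 0.00859, adjusted p = 0.240). The groups did not overlap, as for its ligand Fgf7. Etv5, a transcription factor induced by FGF signalling, was at -0.39 and Fgf2 at -0.34, while Dusp6, a phosphatase also induced by FGF signalling, was at 0.38.

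Factors related to the members lay on both sides of their WT level. Of 20 measured, 0 were called, 5 were lower and 3 higher at an unadjusted p under 0.05, against 7.63% and 4.4% of all clusters. Tbx3, a T-box factor close to Tbx2, read 11.88, 11.85, 11.97 and 11.82 in KO replicates 1 to 4, against 11.61, 11.41, 11.69 and 11.54 in WT replicates 1 to 4 (change 0.32, SE 0.07, unadjusted p = 0.00194, adjusted p = 0.146). All KO arrays were above all WT arrays. Nr2f1, a nuclear receptor, was at -0.26 and Foxf2, the forkhead factor closest to Foxf1, at -0.31, both without overlap, with Meox1 at -0.27 and Ebf1, a factor of B cells and mesenchyme, at 0.45.

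Set beside collagens, the fibroblast genes differed little. The 13 interstitial collagen genes, of which several were picked by the study on these same lungs, had a median change of -0.63 with 6 called lower and 12 lower at an unadjusted p under 0.05. Col3a1 fell by 2.46 (adjusted p = 0.0133) and Col1a1 fell by 2.03 (adjusted p = 0.0160), against -0.11 for the median member and -1.11 for Dpt. Collagen calls numbered 0 without KO replicate 1 or WT replicate 3, where Col3a1 still differed by -2.36 and -2.48, and 2 to 5 without another array. Averaged over the 13 collagens the log2 signal ran from 7.48 to 7.98 in KO and from 8.46 to 8.75 in WT lungs. The difference between both lists of changes was not tested.

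**Figure D4:**
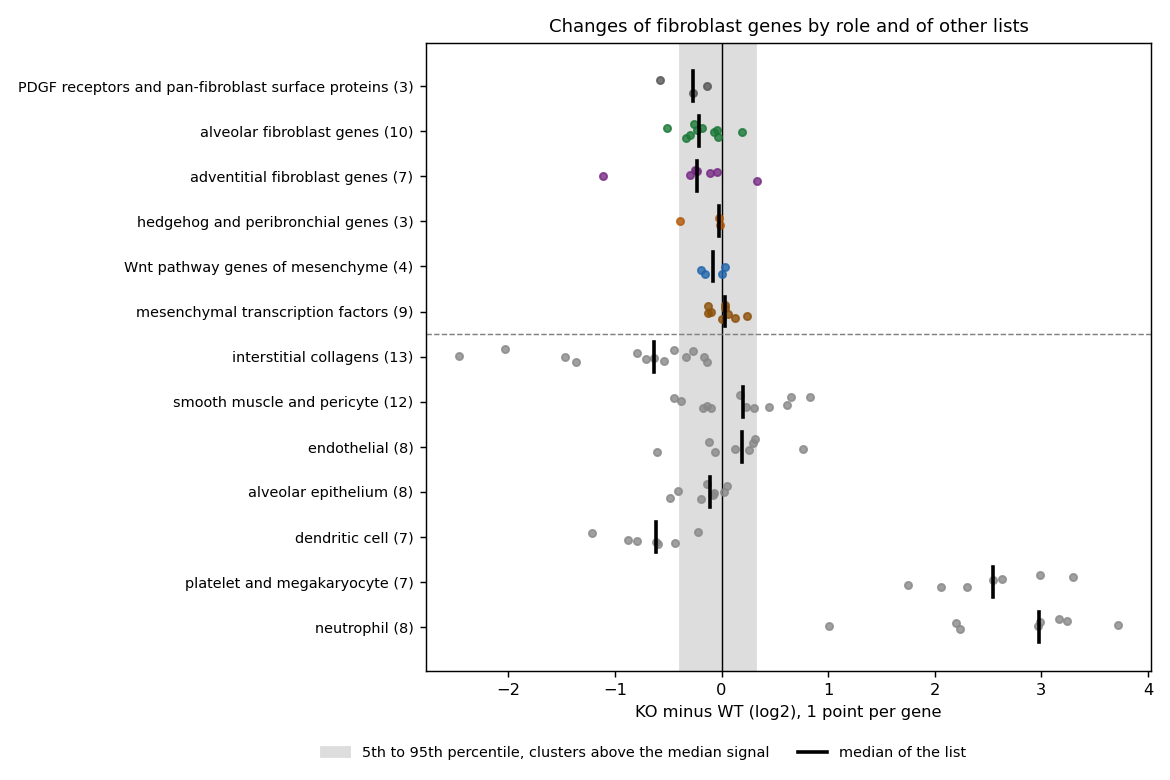
Change of each gene (KO minus WT, log2) by role for the fibroblast members, above the dashed line, and for collagens and markers of other cells, below it; numbers in brackets are measured genes, black bars are medians and the grey band holds the 5th to 95th percentile of clusters above the median signal (-0.39 to 0.33). Adventitial genes have a median of -0.23 and transcription factors of 0.03, while platelet and neutrophil markers centre at 2.55 and 2.98.

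Markers of blood cells differed between the same lungs, and in whole tissue fewer cells of a type cannot be told apart from less RNA per cell. Of 7 measured platelet markers, 7 were higher at an unadjusted p under 0.05 and 2 were called (0 to 6 with an array left out, 6 without WT replicate 4), and their mean ran from 10.51 to 11.77 in KO and from 8.05 to 10.31 in WT lungs. All 8 neutrophil markers were higher at that p, with a mean of 8.99 to 12.79 in KO and 7.88 to 8.79 in WT lungs. Erythroid markers were higher in 3 of 3 measured. All 7 dendritic cell markers had a lower KO mean, 5 of them at that p, with a mean of 6.15 to 6.87 in KO and 6.88 to 7.53 in WT lungs. The median change was 2.55 for platelet and 2.98 for neutrophil markers, against -0.11 for the fibroblast members, and the part of these cells in the fibroblast readings was not tested.

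Markers of other stromal and epithelial cells differed less. Of 12 smooth muscle and pericyte markers 7 had a higher and 5 a lower KO mean, and the median change of the 12 was 0.20. The largest change was upward, Cnn1 at 0.83, and Rgs5, a pericyte gene, was at 0.30, both with overlapping arrays. At an unadjusted p under 0.05, 0 were higher and 2 were lower, the pericyte genes Cox4i2 (-0.45) and Higd1b (-0.38). Mesothelial markers gave 0 of 6 at that p, with means of 7.61 to 9.23 in KO and 7.80 to 9.94 in WT lungs. Alveolar epithelial markers gave 3 of 8 lower at that p, the type II cell genes Abca3 (-0.41), Lamp3 (-0.48) and Sftpc (-0.19). The type II cell genes Sftpb (0.05) and Sftpa1 (0.02) of the same list were not lower. Airway markers gave 0 of 5 and macrophage markers 1 of 10, Ly6c2, which was higher. What these differences contributed to the fibroblast genes was not tested.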

How the data were processed

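Total RNA of 8 mouse lungs, 4 Atf4 KO and 4 Atf4 WT, had been hybridised to Affymetrix Clariom D mouse arrays. The authors deposited 1 log2 signal per transcript cluster and array, from RMA normalisation with default parameters in Transcriptome Analysis Console; the RMA variant and genome build are not given in the sources used here. Quantile normalisation equalises the arrays (medians 5.21 to 5.29), so a shift shared by most transcripts would not show. Arrays have no read depth, and 4 animals per group limit the precision.

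Clusters were named from the platform annotation, with symbols updated through GRCm38.p6 gene identifiers (31290 with 1 symbol, 1524 with several, 33142 with none). The brightest cluster with a single symbol stood for a gene. All 65956 clusters entered 1 two-sided moderated test of genotype without covariates, run with the lmFit and eBayes functions of limma 3.58.1 (R 4.3.3), and p-values were adjusted by Benjamini-Hochberg over all of them. Calls needed a fold above 1.5 together with an adjusted p no higher than 0.05. The code was tested on simulated data. Each array was counted as 1 animal, as the titles give biological replicates. All members are reported; values per array are printed for those called, with an unadjusted p under 0.05 or with groups that do not overlap, for partners of a pathway at most the 5 with the smallest p are named, and markers follow fixed lists. Ptch1 and the values per array of Foxf1, Fgfr2 and Tbx3 lie outside this rule and were chosen after values were seen. The members and lists were chosen with earlier results of these data known. Alternatives were other centring, filters, variance models, sex as a covariate, a fit of the males, a block by replicate number, leaving out single arrays, and other thresholds. Motifs were searched on both strands of RefSeq promoters, whose orientation was checked on 421 overlapping opposite pairs. Figures were drawn with matplotlib 3.10.9.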

Additional observations from a re-analysis of the deposited data

Results flagged for a closer look

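In 5 of 72 groups of 4 lungs, 1 array lay apart from its group by Dixon's test, which compares the gap to the nearest array with the whole range and flags about 1 in 20 groups by chance. Dpt in KO replicate 2 read 11.59, against 12.84 to 13.10 in the other KO lungs (ratio 0.830, barely past the critical value). Ces1d in KO replicate 4 read 13.12, against 13.41 to 13.45 (ratio 0.879), and Twist2 in KO replicate 3 read 5.399, against 5.15 to 5.17 (ratio 0.905). Cd34 in the array labelled WT replicate 1 read 12.23, against 12.60 to 12.66 in the other WT lungs (ratio 0.858). Osr1 in WT replicate 4 read 9.01, against 9.94 to 9.99 (ratio 0.954), the most separated of the 5.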

How the results depend on the processing

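With 4 lungs a group, single arrays set many of these readings. Calls over all clusters numbered 182, and 0 by a t-test of each cluster alone (the methods' t-test for comparisons of 2 groups in general; 7261 at an unadjusted p under 0.05, against 7932 by limma), 4 in males only, 0 with the replicate block (7694 unadjusted), 315 with the adjusted p allowed up to 0.1, and 8 to 266 with each array left out. Members called stayed at 0 under all 20 alternatives except without the array labelled WT replicate 1, where Cd34 was called (range 0 to 1). In that fit 266 of all clusters were called. Under the t-test and the replicate block the 0 was fixed, as 0 of all clusters were called. Members lower at an unadjusted p under 0.05 numbered 8, and 5 after centring arrays on their medians, 5 in males only, and 5 to 9 with an array left out. They numbered 5 without KO replicate 1, KO replicate 2 or WT replicate 4. Over 18 settings Cd34, Dpt and Fgf7 were lower at that p in 18, Fgf10 and Fstl1 in 16, Serpinf1 in 13, Limch1 in 8 and Wnt5a in 7. Members higher numbered 0, and 2 after centring (Pi16 and Foxf1), 1 by cyclic loess (Foxf1), 1 with sex as a covariate (Pi16), and 0 to 2 with an array left out. The median change was negative throughout, from -0.15 to -0.05. The causes were not tested.

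Taken over all clusters, deviations of same-numbered arrays correlated at -0.04, 0.06, 0.03 and -0.19. A correlation over the whole array cannot show whether same-numbered lungs shared variation in single genes, and pairing of the members was not tested. With the replicate block 10 members were lower at an unadjusted p under 0.05, 7 of them among the 8, and the median change was -0.11. The others were Thy1, Tcf21 and Meox2.

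In 24 members the sign never turned. It turned in 12, at sizes of at most 0.15. With an array left out the changes ran from -0.12 to 0.012 for Wnt2, -0.086 to 0.023 for Inmt, -0.15 to 0.031 for Plin2, -0.16 to 0.13 for Medag, -0.045 to 0.0052 for Gli1, -0.043 to 0.013 for Gli2, -0.10 to 0.089 for Axin2, -0.15 to 0.26 for Lgr6, -0.017 to 0.083 for Twist1, -0.034 to 0.028 for Prrx1, -0.070 to 0.21 for Tbx5 and -0.11 to 0.35 for Osr1. After centring they were 0.011 for Gli1 and 0.0064 for Gli2, and by cyclic loess 0.0097 for Inmt, 0.021 for Gli1 and 0.018 for Gli2. In males only they were 0.051 for Medag, 0.012 for Gli1, 0.033 for Gli2, -0.030 for Twist1 and -0.0022 for Prrx1, and with array weights 0.036 for Medag and -0.036 for Axin2. Using another cluster of a gene gave no value, since each member had 1.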
